A study of Mus musculus with 24 samples.

Results

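The genes described here are those of the cytochrome P450 enzymes and of the enzyme families that work beside them in the oxidation, hydrolysis and conjugation of drugs, lipids, steroids and aldehydes. They were chosen by name, as the protein-coding genes whose symbols begin with Cyp, Ugt1, Ugt2, Sult, Aldh, Ces, Fmo or Aox and a number, leaving out Aldh1l1, Cyp51, Cyp46a1 and Cyp27a1. This gave 188 genes of 53465 in the count files, of which 22040 are protein-coding. The mice numbered 12, with brain RNA sequenced from each: 6 of the wild-derived inbred strain CAST/EiJ and 6 of the wild-derived inbred strain WSB/EiJ. The study set these strains side by side because the sizes of their infarcts differ after occlusion of a cerebral artery. No surgery, treatment, sex, age, dissection or batch is given in the labels. All CAST libraries precede all WSB libraries in the order of their index numbers, so strain and index order cannot be told apart. The labels give the tissue as brain with no region, and both a neuronal and an oligodendrocyte marker were abundant. Snap25 was at 1765 to 2325 CPM, its share of all gene reads scaled to the same depth, in CAST and 2062 to 2749 CPM in WSB animals, and Mbp at 1502 to 2053 CPM in CAST and 1004 to 2435 CPM in WSB animals.

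P450 enzymes are haem proteins of the endoplasmic reticulum and mitochondria that insert an oxygen atom into their substrates with electrons from P450 reductase or ferredoxin. Families 1 to 3 are best known for drugs and other foreign compounds and for arachidonic acid, family 4 for fatty acids and eicosanoids, and families 7 to 39 for sterols, steroid hormones, bile acids, vitamin D and retinoids. Flavin monooxygenases and aldehyde oxidases oxidise by other cofactors, aldehyde dehydrogenases and carboxylesterases take oxidation and hydrolysis further, and glucuronosyltransferases and sulfotransferases attach polar groups that ease export. In the brain these families are known for making and clearing neurosteroids, retinoic acid, eicosanoids and reactive aldehydes, while most drug-metabolising members are liver enzymes.

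The 6 CAST libraries held 42852743 ± 3324750 reads in genes and the 6 WSB libraries 39959790 ± 4353590 (mean ± SD), a difference within the spread of the libraries (exact two-sided permutation p = 0.229). Alignments that were not unique made up 15.6% to 16.1% of the total in CAST animals and 16.99% to 17.5% in WSB animals. The animal CAST_142 stood apart in markers of cerebellar granule cells, whose summed level was 40.6 to 894 CPM in CAST animals, with this animal highest, and 37.4 to 57.8 CPM in WSB animals. The summed level of 4 olfactory bulb markers was 22.6 to 52.3 CPM in CAST and 15.6 to 218 CPM in WSB animals, and WSB_100 was the highest WSB animal for each of the 4. None of 7 neuronal and none of 6 oligodendrocyte markers was called between the strains, while 1 of 6 tested astrocyte markers was called higher in CAST. Over all tested genes 42.7% were called. Gfap, an astrocyte marker, was listed at 0 in every animal. Other genes overlap Gfap along its full length, so this 0 does not measure its expression. Y-linked genes were high in 3 animals and low in 3 animals of each strain: Ddx3y, an RNA helicase gene chosen after its values were seen, was at 76.7 to 83.7 CPM in 3 CAST animals and 61.8 to 66.9 CPM in 3 WSB animals, and at 0.0540 to 3.19 CPM in the other CAST and 0.107 to 2.50 CPM in the other WSB animals.

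Of the 188 genes, 37 had no read in any animal, 83 had reads but too few for testing, and 68 were tested. The test was edgeR's quasi-likelihood test on counts, with Benjamini-Hochberg adjustment over all 18425 genes tested. A gene is said to be called when its adjusted p was under 0.05, and every fold change is CAST over WSB on a log2 scale. The filter on low counts asks for about 0.241 CPM in 6 animals, so a gene expressed in 1 strain alone can pass it. This was so for 6 of the 68, namely Cyp2b13, Cyp2b19, Cyp2c55, Cyp2c70, Cyp4f16 and Sult3a2, which were over the limit in all 6 CAST animals and in no WSB animal. No gene showed the reverse.

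Read counts were called different between the strains at 48 of the 68 tested genes (70.6%), where 42.7% of all tested genes and 39.3% of tested protein-coding genes were called. In CAST 33 of them were higher and 15 lower, while over all tested genes 21.5% were called higher and 21.2% lower, and over protein-coding ones 19.8% and 19.5%. Differences of at least 2-fold were called at 28 of the 68 (41.2%), against 12.2% of all tested genes (6.30% higher and 5.91% lower in CAST) and 7.46% of protein-coding ones (3.90% higher and 3.56% lower). At least 4-fold differences were called at 12 of the 68 (17.6%), against 5.20% of all tested genes and 2.64% of protein-coding ones. Of these 12, 6 are the genes over the filter limit in CAST animals alone. For Sult3a1, Cyp2j13 and Cyp3a57 only the highest WSB animal was over it, so these also passed the filter through CAST. For 36 of the 68 genes every CAST animal lay on 1 side of every WSB animal in CPM, 27 of them higher and 9 lower in CAST, where 27.1% of all tested genes had ranges that did not overlap, as had 23.6% of protein-coding ones. The median log2 fold change was 0.34 over the 68 genes and 0.0046 over all tested genes, and the median size without sign was 0.72 against 0.22. Among the 50 of the 68 genes that were over the filter limit in all 12 animals, 21 were called higher and 12 lower, 13 were called with at least 2-fold and 1, Aldh3b2, with at least 4-fold. Of all 16272 tested genes over that limit in all 12 animals, 40.3% were called, 6.90% with at least 2-fold and 1.51% with at least 4-fold, and of the 13935 protein-coding ones among them 38.1%, 4.58% and 0.861%. The genes are not independent of each other, since many lie side by side and share sequence, and no test of the group as a whole was made.

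**Figure D1:**
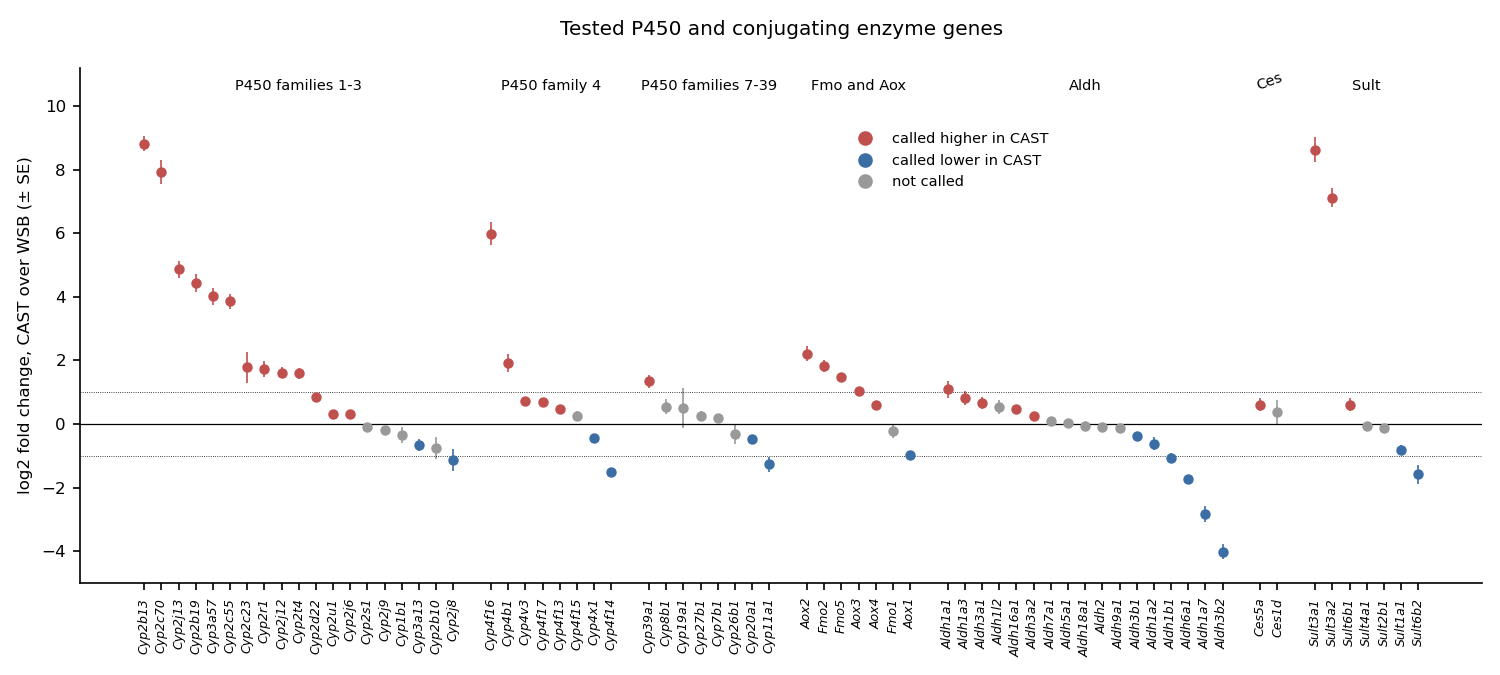
Log2 fold change (y axis, CAST over WSB, with its SE) of each of the 68 tested genes, ordered within 7 enzyme groups along the x axis; colours mark called and not called genes and the dotted lines mark 2-fold. The points above 4 are Cyp2b13, Sult3a1, Cyp2c70, Sult3a2, Cyp4f16, Cyp2j13, Cyp2b19 and Cyp3a57, and the lowest points are Aldh3b2 at -4.01 and Aldh1a7 at -2.84.

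In total level the tested genes held 1032 to 1153 CPM in CAST animals (median 1043) and 926 to 990 CPM in WSB animals (median 969). These ranges did not overlap, and CAST animals were higher. Without Sult3a1 and the 6 genes over the filter limit in CAST alone, a choice made after seeing the data, the other 61 genes held 978 to 1109 CPM in CAST animals (median 987) and 925 to 989 CPM in WSB animals (median 968), and the ranges overlapped. A single gene, Sult4a1, made up 27.6% to 38.4% of the sum over all 68 tested genes in the 12 animals. Fewer cells of a type and less RNA per cell cannot be told apart in such bulk samples, here and at every gene below.

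Levels between genes can be set side by side only per length. Per kilobase of exon, Sult4a1 was by far the highest, with a mean of 132 CPM in CAST animals, against 137 CPM in WSB animals. In CAST animals Sult3a1 came next at 28.1 CPM per kilobase, ahead of Aldh2 at 13.8, Aldh7a1 at 12.4 and Cyp2d22 at 12.1 CPM per kilobase. In WSB animals Sult3a1 was at 0.0681 CPM per kilobase, and Aldh2 at 14.7, Aldh7a1 at 11.5 and Aldh3a2 at 9.08 CPM per kilobase followed Sult4a1. Counts may include reads of introns, which an exon length does not account for.

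**Figure D2:**
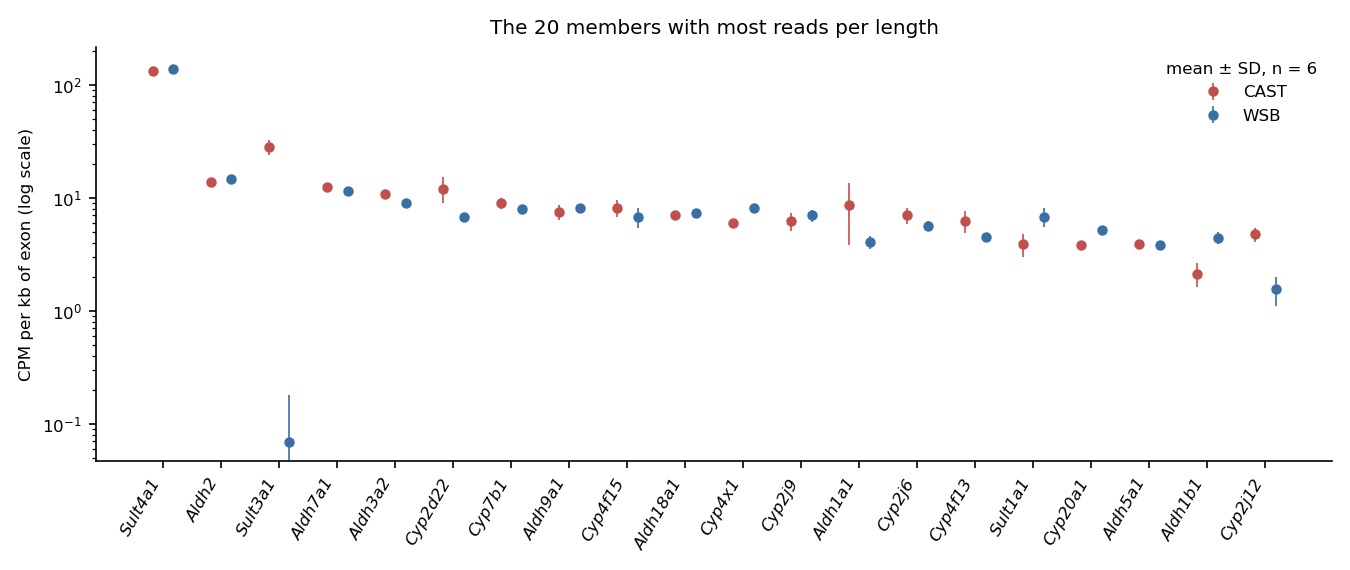
Mean level per kilobase of exon (y axis, CPM per kilobase, log scale, SD as bars, n = 6) in CAST and WSB animals for the 20 genes of the group with most reads per length. Sult4a1 stands above 100 in both strains, and Sult3a1 is the gene whose CAST and WSB points lie farthest apart, at 28.1 and 0.0681.

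P450 genes of families 1 to 3 numbered 62, of which 19 were tested, 13 were called higher in CAST, 2 lower and 4 were not called. Over all tested genes 21.5% were called higher and 21.2% lower. Strain ranges did not overlap for 11 of the 19, all higher in CAST, where 27.1% of all tested genes had such ranges. The group held 6 of the 12 differences of at least 4-fold, in the Cyp2b, Cyp2c, Cyp2j and Cyp3a subfamilies. All 6 passed the filter through CAST animals. Cyp2b13, Cyp2b19, Cyp2c55 and Cyp2c70 were over its limit of about 0.241 CPM in no WSB animal. For Cyp2j13 and Cyp3a57 the second highest WSB animal was under it, at 0.230 and 0.210 CPM. The median log2 fold change of the 19 genes, with these 6 among them, was 1.59.

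Cyp2b13, a relative of the phenobarbital-inducible Cyp2b10, lies on chromosome 7 (chr7:26061497-26096197, plus strand, GRCm38). It was at 8.02 CPM in the lowest, 9.14 at the median and 9.47 in the highest CAST animal, against 0, 0.0254 and 0.0302 CPM in WSB animals. Every CAST animal was far above every WSB animal, so the animals with low and those with high Ddx3y in a strain lay on the same side. In reads this was 2283 over the 6 CAST animals and 4 over the 6 WSB animals. The log2 fold change was 8.82 ± 0.23 (SE; adjusted p = 5.71e-12 by edgeR). Cyp2b13 is a female-predominant gene of mouse liver, as background. Of its transcript 32-mers, 39.7% also occur in transcripts of other genes, mostly Cyp2b9 and the gene model Gm45225, which had 3 reads and 0 reads over all animals. How unequal alignment of such sequence may bear on the counts was not tested.

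Cyp2b19 (chr7:26757142-26772630), an arachidonic acid epoxygenase of the epidermis, was at 1.45, 3.07 and 3.39 CPM at the lowest, median and highest CAST animal, against 0.0699, 0.127 and 0.181 CPM in WSB. The ranges lay far apart, with CAST_142 the lowest CAST animal. The log2 fold change was 4.43 ± 0.28 (adjusted p = 2.89e-08 by edgeR), and 5.72% of its 32-mers were shared. Farther along the same stretch Cyp2t4, a P450 without a well-established substrate, was at 5.87 ± 0.992 CPM in CAST animals, against 1.94 ± 0.458 CPM in WSB animals (mean ± SD of 6 animals each), a log2 fold change of 1.59 ± 0.17. Cyp2b10 itself, with 55 reads in CAST and 86 in WSB animals, was not called (log2 fold change -0.74 ± 0.34, adjusted p = 0.0987 by edgeR). Without CAST_142 and WSB_100 it was called, at -1.03 (adjusted p = 0.0242), and likewise without WSB_100 alone (adjusted p = 0.0482). Cyp2s1, the first gene of the stretch, was at 4.53 ± 0.440 CPM in CAST animals, against 4.83 ± 0.959 CPM in WSB animals and was not called. The pseudogene Gm4613, which lies between Cyp2s1 and Cyp2b10 and was noticed after its values were seen, had 4153 reads in CAST and 3 in WSB animals. That is a ratio of 1290 (exact 95% interval 441 to 6257, for counting error only).

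The promoters of the 3 Cyp2b genes with tested counts are shown because they come from neighbouring copies of a gene of which 2 were higher in CAST and 1 was not called. Each runs from 250 bases before to 50 bases after the start in RefSeq on GRCm38.p6, plus strand, which is the sequence of the C57BL/6J reference and not of CAST/EiJ or WSB/EiJ. Capitals mark AGGTCA, the core letters of many nuclear receptor elements, and GCGTG or its reverse complement CACGC, the core letters of the aryl hydrocarbon receptor element.
Cyp2b13 (chr7:26061245-26061544): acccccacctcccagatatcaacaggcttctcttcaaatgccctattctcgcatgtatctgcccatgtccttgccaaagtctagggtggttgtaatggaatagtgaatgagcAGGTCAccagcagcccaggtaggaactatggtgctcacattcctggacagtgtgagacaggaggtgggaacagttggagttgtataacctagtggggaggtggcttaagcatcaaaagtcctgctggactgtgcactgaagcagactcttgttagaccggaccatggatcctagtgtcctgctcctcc
Cyp2b19 (chr7:26756892-26757191): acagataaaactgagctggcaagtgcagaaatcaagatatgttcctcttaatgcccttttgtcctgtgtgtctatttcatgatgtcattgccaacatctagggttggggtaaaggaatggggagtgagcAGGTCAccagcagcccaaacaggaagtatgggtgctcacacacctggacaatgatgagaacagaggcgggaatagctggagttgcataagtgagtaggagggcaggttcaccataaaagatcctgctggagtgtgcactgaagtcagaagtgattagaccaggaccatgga
Cyp2b10 (chr7:25897408-25897707): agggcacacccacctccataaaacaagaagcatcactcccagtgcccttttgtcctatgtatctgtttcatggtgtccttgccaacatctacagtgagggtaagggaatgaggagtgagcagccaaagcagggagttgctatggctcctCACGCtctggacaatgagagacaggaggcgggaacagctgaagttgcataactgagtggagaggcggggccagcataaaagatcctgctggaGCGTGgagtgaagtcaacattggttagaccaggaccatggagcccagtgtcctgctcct
AGGTCA occurred once in the windows of Cyp2b13 (from base 113) and Cyp2b19 (from base 130) and not in that of Cyp2b10, while GCGTG occurred at bases 150 and 242 of Cyp2b10 alone. In an alignment of the windows, identity was 76.9% between Cyp2b13 and Cyp2b19 (213 of 277 aligned bases), 77.2% between Cyp2b13 and Cyp2b10 and 80.5% between Cyp2b19 and Cyp2b10. Both strands were searched and matches of different motifs were allowed to overlap. Over the 26742 genes with a window in the table, AGGTCA occurred in 16.2% and GCGTG in 32.4%. A window was found for 52 of the 68 tested genes, and 8 of these (15.4%) held AGGTCA and 16 (30.8%) GCGTG. The core promoter motif TATAAA was in 10 of the 52 (19.2%) and in 14.1% of all genes, and the antioxidant response element TGACNNNGC in 5 of the 52 (9.62%) and in 12.4% of all genes. These are matches of letters and no measure of binding.

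Cyp2c70 (chr19:40153353-40187333), which in mouse liver makes muricholic bile acids, was at 1.83, 2.99 and 3.35 CPM at the lowest, median and highest CAST animal, against 0, 0 and 0.0256 CPM in WSB. All 6 CAST animals had reads, while WSB animals held 2 reads in all, in WSB_100 and WSB_135. The ratio of 713 to 2 reads came to 332 after scaling for depth (exact 95% interval 91.6 to 2748). The fitted log2 fold change was 7.93 ± 0.38 (adjusted p = 1.70e-09 by edgeR), and none of its 32-mers was shared with another gene. Cyp2c55, an arachidonic acid hydroxylase, lies on the same stretch and was at 1.87 ± 0.193 CPM in CAST animals, against 0.126 ± 0.0628 CPM in WSB animals (mean ± SD of 6 animals each). Cyp2c23, a renal epoxygenase on another part of the chromosome, was at 0.158 to 1.45 CPM in CAST and 0.0506 to 0.386 CPM in WSB animals, so the ranges overlapped, and was called with a log2 fold change of 1.79 ± 0.49. The other 12 of the 15 Cyp2c genes were not tested.

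Among the Cyp2j genes, which make epoxides and hydroxy acids from arachidonic acid, neighbouring copies went different ways. Cyp2j13 was at 2.98, 4.48 and 5.02 CPM at the lowest, median and highest CAST animal, against 0.0759, 0.110 and 0.256 CPM in WSB, and the ranges were well apart. The log2 fold change was 4.86 ± 0.26 (adjusted p = 4.94e-09 by edgeR). Cyp2j12 was also higher, at 9.21 ± 1.25 CPM in CAST animals, against 3.02 ± 0.868 CPM in WSB animals (mean ± SD of 6 animals each; log2 fold change 1.61 ± 0.17). The abundant brain members differed little: Cyp2j6 was at 25.2 ± 3.97 and 20.4 ± 1.96 CPM, called higher with overlapping ranges, and the call was lost without WSB_147 (adjusted p = 0.0573) or WSB_169 (adjusted p = 0.0557). Cyp2j9, a brain arachidonic acid hydroxylase, was at 20.6 ± 3.70 CPM in CAST animals, against 23.3 ± 2.83 CPM in WSB animals and was not called (adjusted p = 0.221 by edgeR). Cyp2j8 was called lower, at 0.191 ± 0.103 CPM in CAST animals, against 0.416 ± 0.132 CPM in WSB animals. It had few reads, 48 in CAST and 99 in WSB animals. Its ranges overlapped, with the highest CAST animal at 0.319 and the lowest WSB animal at 0.253 CPM.

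Cyp2d22, the most expressed P450 of these families per length and the mouse gene often set beside human CYP2D6, was at 39.3, 41.2 and 70.5 CPM at the lowest, median and highest CAST animal, against 24.4, 26.6 and 27.2 CPM in WSB. The ranges did not overlap, and the highest value was that of CAST_142. The log2 fold change was 0.85 ± 0.13 (adjusted p = 0.00012 by edgeR) and 0.69 without CAST_142 and WSB_100. Cyp3a57 was at 2.89 ± 0.367 CPM in CAST animals, against 0.171 ± 0.104 CPM in WSB animals (mean ± SD of 6 animals each; log2 fold change 4.01 ± 0.27), with 21.5% of its 32-mers shared. Cyp2r1, a vitamin D hydroxylase, was at 0.542 to 1.35 CPM in CAST and 0.181 to 0.461 CPM in WSB animals, and Cyp2u1, a brain fatty acid hydroxylase, at 16.6 to 19.4 CPM and 12.9 to 16.3 CPM. Both were called higher in CAST. Cyp3a13 was the other gene of these families called lower, at 0.436 ± 0.0913 CPM in CAST animals, against 0.688 ± 0.161 CPM in WSB animals, and lost the call with lane 6 alone (adjusted p = 0.098). Cyp1b1, which oxidises oestradiol and polycyclic hydrocarbons, was at 3.02 ± 0.588 CPM in CAST animals, against 3.87 ± 1.89 CPM in WSB animals and was not called. Genes named in this paragraph other than Cyp2d22, and Cyp2b10, Cyp2s1, Cyp2t4, Cyp2c23, Cyp2c55, Cyp2j6, Cyp2j8 and Cyp2j12 above, were chosen after their values were seen.

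**Figure D3:**
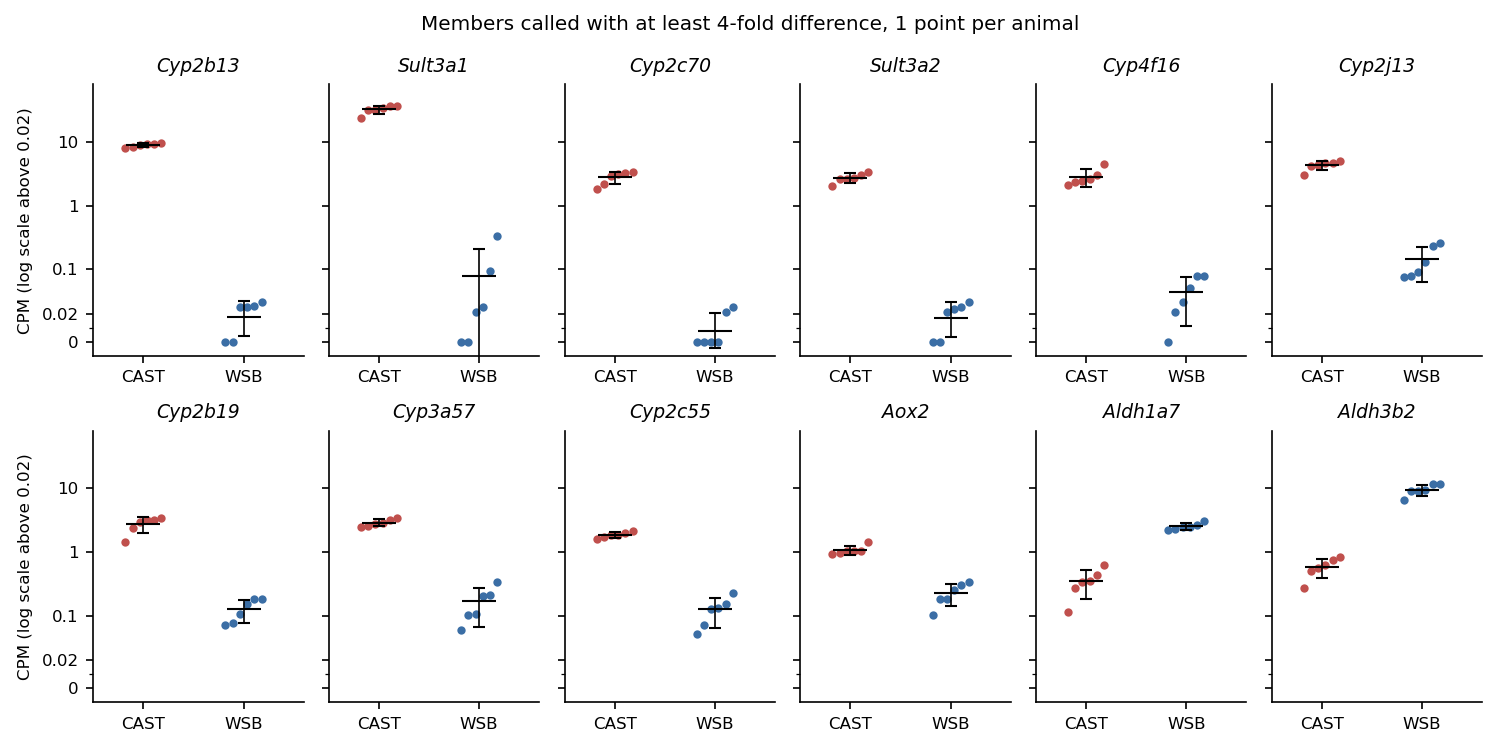
CPM in each animal (y axis, log scale above 0.02, linear to 0 below it; 1 point per animal, line and bars are mean and SD, n = 6) for the 12 genes called with at least 4-fold difference, CAST left of WSB. In 10 panels all CAST points lie above all WSB points, and in the panels of Aldh1a7 and Aldh3b2 all lie below.

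P450 genes of family 4, which hydroxylate fatty acids and leukotrienes, numbered 20. Of 8 tested, 5 were called higher in CAST, 2 lower and 1 was not called, and the ranges did not overlap for each of the 7 called. Over all tested genes 42.7% were called, and 27.1% had ranges that did not overlap. Cyp4f16 had the largest difference, at 2.08, 2.51 and 4.52 CPM at the lowest, median and highest CAST animal, against 0, 0.0404 and 0.0783 CPM in WSB. No WSB animal came near the lowest CAST animal, and the highest was CAST_142. The log2 fold change was 5.98 ± 0.36 (adjusted p = 1.99e-08 by edgeR), with 731 reads in CAST and 10 in WSB animals, and it was 5.20 on lane 5 alone and 7.54 on lane 6 alone. Its 32-mers are shared to 26.1%, mostly with Cyp4f37, which had 12 reads in CAST and 0 in WSB animals.

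Cyp4f16 lies in a stretch of chromosome 17 where Cyp4f17, Cyp4f15, Cyp4f14 and Cyp4f13 were also tested. Cyp4f14, a leukotriene B hydroxylase, went the other way, at 1.02, 1.24 and 1.55 CPM at the lowest, median and highest CAST animal, against 3.03, 3.45 and 3.98 CPM in WSB. Its ranges did not overlap (log2 fold change -1.49 ± 0.12; adjusted p = 3.60e-07 by edgeR). Cyp4f17 and Cyp4f13, chosen after their values were seen, were called higher by 0.70 and 0.48 on the log2 scale. Cyp4f15, the most expressed gene of the family per length, was at 18.5 ± 3.23 CPM in CAST animals, against 15.5 ± 3.13 CPM in WSB animals and was not called (adjusted p = 0.184 by edgeR). Leaving out CAST_142, the lowest CAST animal, brought it to a log2 fold change of 0.34 (adjusted p = 0.0357).

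Outside that stretch, Cyp4x1, a P450 of brain neurons, was lower by a small but even amount. It was at 22.1, 24.8 and 27.3 CPM at the lowest, median and highest CAST animal, against 32.1, 33.5 and 35.3 CPM in WSB, with no overlap (log2 fold change -0.43 ± 0.05; adjusted p = 9.46e-06 by edgeR). Of its 32-mers 22.0% are shared, in part with the antisense gene Cyp4x1os, and reads of a gene and its antisense partner cannot be told apart here. Cyp4b1, on the same stretch of chromosome 4, was higher at 1.67 ± 0.638 CPM in CAST animals, against 0.438 ± 0.109 CPM in WSB animals (mean ± SD of 6 animals each; log2 fold change 1.92 ± 0.29). Cyp4v3, the mouse relative of human CYP4V2, a fatty acid hydroxylase, was at 6.92 ± 0.503 CPM in CAST animals, against 4.16 ± 0.296 CPM in WSB animals (log2 fold change 0.73 ± 0.07).

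P450 genes of families 7 to 39, most but not all of them known for sterols, steroids, vitamin D and retinoids, numbered 16. Of these 8 were tested, 1 was called higher in CAST, 2 lower and 5 were not called. The share called, 37.5%, is near the 42.7% of all tested genes and 39.3% of protein-coding ones. Cyp39a1, which hydroxylates the brain oxysterol made by Cyp46a1, was at 2.24, 4.76 and 5.34 CPM at the lowest, median and highest CAST animal, against 1.39, 1.68 and 1.82 CPM in WSB. The ranges did not overlap (log2 fold change 1.35 ± 0.21; adjusted p = 0.000133 by edgeR), and CAST_142 was lowest. Cyp11a1, which cleaves the cholesterol side chain in the first step of steroid synthesis, was at 1.01, 1.44 and 2.15 CPM at the lowest, median and highest CAST animal, against 2.02, 3.21 and 5.62 CPM in WSB. The ranges overlapped at their ends (log2 fold change -1.26 ± 0.23; adjusted p = 0.000631 by edgeR). Cyp20a1, an orphan P450, was lower at 8.66 ± 0.539 CPM in CAST animals, against 11.9 ± 0.992 CPM in WSB animals (mean ± SD of 6 animals each; log2 fold change -0.46 ± 0.07).

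Cyp7b1, the oxysterol and neurosteroid hydroxylase that was the most expressed of this group per length, was at 19.3 ± 2.15 CPM in CAST animals, against 17.1 ± 1.23 CPM in WSB animals and was not called (adjusted p = 0.0777 by edgeR). Without CAST_142 it was called, with a log2 fold change of 0.22 (adjusted p = 0.0139). Cyp8b1, a bile acid hydroxylase with 188 reads in CAST and 120 in WSB animals, was likewise called without CAST_142 (adjusted p = 0.0221) or without CAST_202 (adjusted p = 0.0247). The number called higher in this group was thus 3 without CAST_142 and 2 without CAST_202. Cyp26b1, which breaks down retinoic acid, ranged from 7.80 to 25.3 CPM in CAST and 10.3 to 26.3 CPM in WSB and was not called (adjusted p = 0.444 by edgeR). Without CAST_142 and WSB_100 its log2 fold change was -0.72 (adjusted p = 0.036). Cyp19a1, the aromatase, had 73 reads in CAST and 47 in WSB animals and was not called. Cyp8b1, Cyp26b1 and Cyp19a1 were chosen after their values were seen.

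All 4 aldehyde oxidase genes, which lie side by side on chromosome 1 (chr1:58029931-58380259), were called, and 1 of them in the other direction from the rest. The share called over all tested genes was 42.7%. Aox1, the most expressed, was at 7.95, 8.36 and 11.5 CPM at the lowest, median and highest CAST animal, against 14.7, 17.5 and 20.6 CPM in WSB. The ranges did not overlap (log2 fold change -0.98 ± 0.11; adjusted p = 5.49e-06 by edgeR). Aox3 was at 3.48, 4.83 and 5.58 CPM in CAST, against 1.87, 2.21 and 2.73 CPM in WSB (log2 fold change 1.05 ± 0.13; adjusted p = 1.35e-05). Aox2 was at 0.926, 1.02 and 1.45 CPM in CAST, against 0.101, 0.220 and 0.333 CPM in WSB (log2 fold change 2.22 ± 0.23; adjusted p = 3.52e-06), so for both of these genes every CAST animal was above every WSB animal. Aox4, chosen after its values were seen, was called higher by 0.59, with ranges that overlapped. These enzymes oxidise aldehydes and nitrogen heterocycles, and each gene shared under 5% of its 32-mers with others.

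Of 7 flavin monooxygenase genes, Fmo1, Fmo2 and Fmo5 were tested. These enzymes oxidise nitrogen and sulfur atoms of drugs and amines. Fmo2, the lung form, was at 3.49, 4.65 and 5.64 CPM at the lowest, median and highest CAST animal, against 0.911, 1.18 and 2.02 CPM in WSB, with no overlap (log2 fold change 1.82 ± 0.18; adjusted p = 2.43e-06 by edgeR). Fmo5 was at 8.11, 8.98 and 11.7 CPM in CAST, against 3.04, 3.30 and 4.04 CPM in WSB, also without overlap (log2 fold change 1.47 ± 0.10; adjusted p = 5.57e-08). Fmo1, which lies next to Fmo2, was at 6.90 ± 1.16 CPM in CAST animals, against 7.98 ± 3.11 CPM in WSB animals (mean ± SD of 6 animals each) and was not called (adjusted p = 0.47). WSB_100 was its highest WSB animal at 13.5 CPM, and without CAST_142 and WSB_100 its log2 fold change was 0.04.

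**Figure D4:**
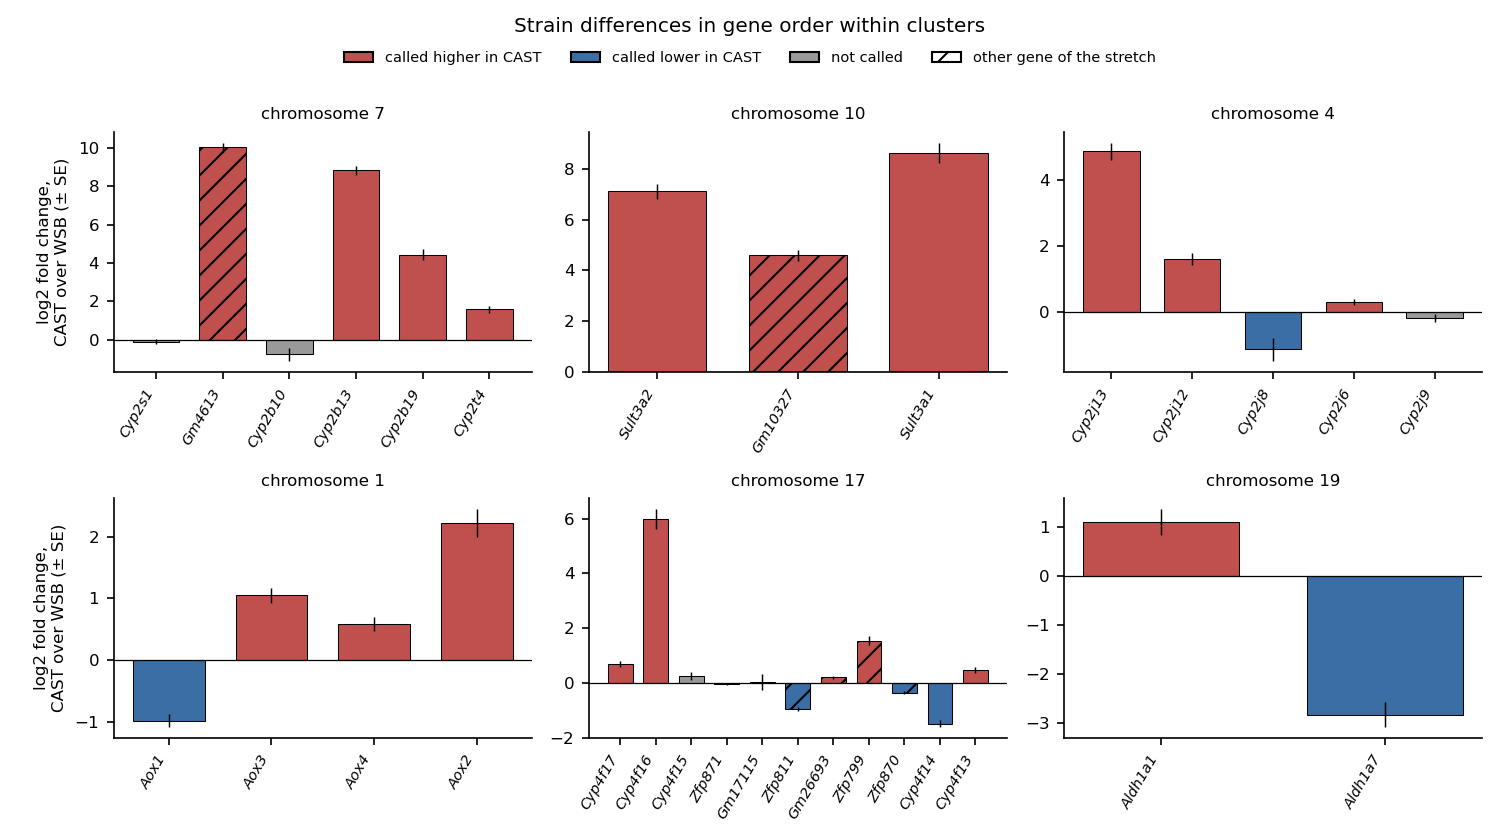
Log2 fold change (y axis, CAST over WSB, bars with SE) of tested genes in their order along 6 stretches of chromosome that hold an enzyme gene with at least 4-fold difference; hatched bars are other genes between them. The bars point both ways on chromosomes 1, 4, 7, 17 and 19, while both Sult3a genes and Gm10327 on chromosome 10 are higher in CAST. On chromosome 7 the bars below 0, Cyp2s1 and Cyp2b10, are of genes not called.

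Aldehyde dehydrogenases were the group with most genes tested for its size, 17 of 20, and the calls went both ways, with 5 higher in CAST, 6 lower and 6 not called. Over all tested genes 21.5% were called higher and 21.2% lower. Aldh3b2, which oxidises lipid-derived aldehydes, had the largest decrease of all 68 genes, at 0.271, 0.593 and 0.830 CPM at the lowest, median and highest CAST animal, against 6.52, 9.25 and 11.7 CPM in WSB. The lowest WSB animal was well above the highest CAST animal (log2 fold change -4.01 ± 0.23; adjusted p = 9.39e-09 by edgeR). Its 32-mers are shared to 30.2%, mostly with Aldh3b3, which had 43 reads in CAST and 94 in WSB animals. Aldh3b1, on the same stretch of chromosome 19 and chosen after its values were seen, was called lower by a log2 fold change of -0.36 and was not called on lane 6 alone (adjusted p = 0.0599).

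Aldh1a1, which oxidises retinaldehyde and dopamine aldehyde, and its neighbour and close copy Aldh1a7 went opposite ways. Aldh1a1 was at 28.0, 31.1 and 89.1 CPM at the lowest, median and highest CAST animal, against 16.9, 20.2 and 22.7 CPM in WSB. All CAST animals were above all WSB animals, and CAST_142 had the highest value (log2 fold change 1.10 ± 0.27; adjusted p = 0.00435 by edgeR). Without CAST_142 and WSB_100 the log2 fold change was 0.72 (adjusted p = 0.00196). Aldh1a7 was at 0.113, 0.344 and 0.617 CPM at the lowest, median and highest CAST animal, against 2.25, 2.48 and 3.02 CPM in WSB, with no overlap (log2 fold change -2.84 ± 0.26; adjusted p = 9.54e-07). Of the 32-mers of Aldh1a7, 13.3% occur in Aldh1a1, and Aldh1a1 had the higher level in both strains.

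Aldh6a1, a mitochondrial enzyme of valine and thymine breakdown, was at 1.45, 1.76 and 1.84 CPM at the lowest, median and highest CAST animal, against 4.60, 5.38 and 6.67 CPM in WSB. The ranges were apart (log2 fold change -1.71 ± 0.12; adjusted p = 1.03e-07 by edgeR), and 17.1% of its 32-mers occur in Bbof1. Aldh2, the mitochondrial acetaldehyde dehydrogenase, was the most expressed of the family per length, at 71.0 ± 2.23 CPM in CAST animals, against 75.2 ± 2.29 CPM in WSB animals (mean ± SD of 6 animals each), and was not called (adjusted p = 0.0661). It was called without WSB_100 (adjusted p = 0.0201), without CAST_202 (adjusted p = 0.0477) and by DESeq2 (adjusted p = 0.0304), with a log2 fold change no larger in size than -0.10. Aldh7a1, a lysine breakdown enzyme, was at 64.1 ± 6.27 CPM in CAST animals, against 59.7 ± 2.31 CPM in WSB animals and was not called.

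The other aldehyde dehydrogenases were chosen after their values were seen. Of the enzymes that make retinoic acid, Aldh1a2 was called lower (log2 fold change -0.62 ± 0.20; adjusted p = 0.0254 by edgeR) and Aldh1a3 higher (0.83 ± 0.22; adjusted p = 0.00865). Aldh1a2 lost the call without CAST_200 (adjusted p = 0.0565), CAST_201 (adjusted p = 0.0533), CAST_203 (adjusted p = 0.0521) or WSB_147 (adjusted p = 0.0589), and Aldh1a3 on lane 5 alone (adjusted p = 0.0521). Aldh1b1, another mitochondrial form, was at 4.89 ± 1.19 CPM in CAST animals, against 10.1 ± 1.22 CPM in WSB animals (mean ± SD of 6 animals each; log2 fold change -1.05 ± 0.15). Aldh3a2, the fatty aldehyde dehydrogenase, Aldh3a1 and Aldh16a1 were called higher by 0.26 to 0.67. Aldh5a1, which ends GABA breakdown, Aldh9a1, Aldh18a1 and Aldh1l2 were not called, with log2 fold changes of 0.03, -0.11, -0.07 and 0.54. Aldh4a1, a proline breakdown enzyme, was listed at 0 in every animal. It is fully overlapped by other genes, so its expression cannot be read from this 0.

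Sulfotransferases numbered 21, of which 7 were tested, 3 were called higher in CAST and 2 lower, where 21.5% of all tested genes were called higher and 21.2% lower. Sult3a1, which sulfates amines, had the largest difference of the conjugating enzymes, at 23.9, 33.5 and 36.6 CPM at the lowest, median and highest CAST animal, against 0, 0.0234 and 0.333 CPM in WSB. Each CAST animal held more than any WSB animal by a wide margin, and the highest WSB value was that of WSB_100. The gene (chr10:33857721-33879532, plus strand) had 8335 reads in CAST and 19 in WSB animals. The log2 fold change was 8.62 ± 0.39 (adjusted p = 1.03e-09 by edgeR) and 9.94 without WSB_100. In mouse liver Sult3a1 is female-predominant, as background, and here all 6 CAST animals were above all 6 WSB animals.

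Sult3a2, its neighbour on the minus strand, was at 2.01, 2.68 and 3.41 CPM at the lowest, median and highest CAST animal, against 0, 0.0224 and 0.0302 CPM in WSB, with 702 and 4 reads. No range overlapped (log2 fold change 7.12 ± 0.30; adjusted p = 4.24e-10 by edgeR). Of its 32-mers 16.5% occur in Sult3a1. The processed pseudogene Gm10327 between them, named after its values were seen, was at 3.32 ± 0.473 CPM in CAST animals, against 0.137 ± 0.0563 CPM in WSB animals (mean ± SD of 6 animals each). RefSeq windows of 300 bases at the starts of Sult3a1 and Sult3a2 were identical at 56.2% of aligned bases.

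Sult4a1, a neuronal sulfotransferase without an established substrate and the most expressed gene of the group, was at 318, 334 and 345 CPM at the lowest, median and highest CAST animal, against 309, 339 and 380 CPM in WSB. The ranges lay over each other and it was not called (log2 fold change -0.05 ± 0.05; adjusted p = 0.492 by edgeR). Sult1a1, the phenol sulfotransferase, was at 4.94, 5.28 and 8.61 CPM in CAST, against 8.25, 9.60 and 14.0 CPM in WSB, where CAST_142 alone reached into the WSB range (log2 fold change -0.80 ± 0.16; adjusted p = 0.000907). Sult6b2, with 40 reads in CAST and 112 in WSB animals, was lower by -1.58 ± 0.29 with no overlap. Sult6b1 and Sult2b1, a cholesterol sulfotransferase, were chosen after their values were seen. Sult6b1 was called higher (0.60 ± 0.20; adjusted p = 0.0287) and lost the call without CAST_170, CAST_200, CAST_201, WSB_138 or WSB_169 (adjusted p 0.0521 to 0.0681). Sult2b1 was not called.

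Of 19 carboxylesterase genes 2 were tested. Ces5a was at 0.768, 1.25 and 1.74 CPM at the lowest, median and highest CAST animal, against 0.665, 0.740 and 1.16 CPM in WSB, and was called with overlapping ranges (log2 fold change 0.62 ± 0.21; adjusted p = 0.0315 by edgeR). The call was lost without CAST_170, CAST_200, CAST_203, WSB_100, WSB_135, WSB_147 or WSB_169, with adjusted p of 0.0539 to 0.0763, so no carboxylesterase was called in those fits. Ces1d, a lipid hydrolase of liver and fat, was at 0.408 ± 0.204 CPM in CAST animals, against 0.309 ± 0.148 CPM in WSB animals (mean ± SD of 6 animals each) and was not called.

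No glucuronosyltransferase was tested. Of the 19 Ugt1a and Ugt2 genes, 14 had no read in any animal, and Ugt2b34 led the rest with 24 reads in CAST and 1 read in WSB animals, a ratio of 22.4 (exact 95% interval 3.65 to 920). Ugt2b1 had 7 reads in CAST and 4 in WSB animals. The Ugt1a genes share exons, and 13 of the 188 genes have under 10% of their body outside other genes of the files. Of these 13, 12 had no read, and a count of 0 there is no measure of expression.

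In all, 120 of the 188 genes fell below the filter, of which 17 had at least 10 reads in an animal. Fitted without a filter, 14 of the 83 with reads were called, 11 higher in CAST and 3 lower, where 29.96% of the 30264 genes in that fit were called. Among those called higher were Cyp2j11 (75 in CAST, 6 in WSB), Cyp2c65 (59 in CAST, 1 in WSB), Cyp2d10 (51 in CAST, 5 in WSB) and Cyp1a1 (48 in CAST, 10 in WSB), the dioxin-inducible P450. Cyp26c1 (28 in CAST, 63 in WSB), Ces1f (17 in CAST, 40 in WSB) and Ces1g (1 in CAST, 22 in WSB) were lower. Shared sequence was commoner there, with a median of 23.9% of 32-mers against 3.37% among the tested genes. The liver enzymes Cyp2e1 (34 in CAST, 33 in WSB) and Cyp3a11 (0 in both) were near or at 0. Of 7 liver markers 1 was tested and called lower in CAST: Apoa1 had 39 reads in CAST and 70 in WSB animals (log2 fold change -0.94; adjusted p = 0.0162 by edgeR). Apoa2 had 56 reads in CAST and 5 in WSB animals, and Alb 1 read in each strain. The summed level of the 7 was 0.243 to 0.575 CPM in CAST and 0.304 to 0.410 CPM in WSB animals, and its part in the enzyme values was not tested.

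Many genes of the group lie side by side whether or not they differed between the strains. Whether the differences lay together more than this layout gives was not tested. Genes of the group less than 500 kilobases apart formed 22 stretches, and 9 of them held a gene with at least 4-fold difference. The Cyp2b, Sult3a, Cyp2c, Cyp2j, Cyp4f, Cyp3a, Aox, Aldh1a and Aldh3b stretches were these 9, and the Cyp3a stretch held only 1 tested gene. The nearest tested genes outside the group on either side of the genes with at least 4-fold difference numbered 19, at distances of 2121 to 1178480 bases. Of these 19, 12 were called and 4 reached 4-fold, where 42.7% of all tested genes were called and 5.20% reached 4-fold. The 4 were Gm4613 and Gm10327, described above, 1700001J03Rik and the pseudogene Cyp2c52-ps. 1700001J03Rik lay 791515 bases from Cyp3a57, with a log2 fold change of 3.84. Cyp2c52-ps lay 3730 bases from Cyp2c55, with 2.14. Of the others, named after their values were seen, Egln2, beyond Cyp2b19, was at 86.3 CPM in CAST animals, against 77.9 CPM in WSB animals by mean and was called (log2 fold change 0.15; adjusted p = 0.0410 by edgeR), while 7 of the 19 were not called, among them Hook1, beside Cyp2j13, at 105 and 98.0 CPM, and Unc93b1, beside Aldh3b2, at 9.65 and 9.08 CPM.

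**Figure D5:**
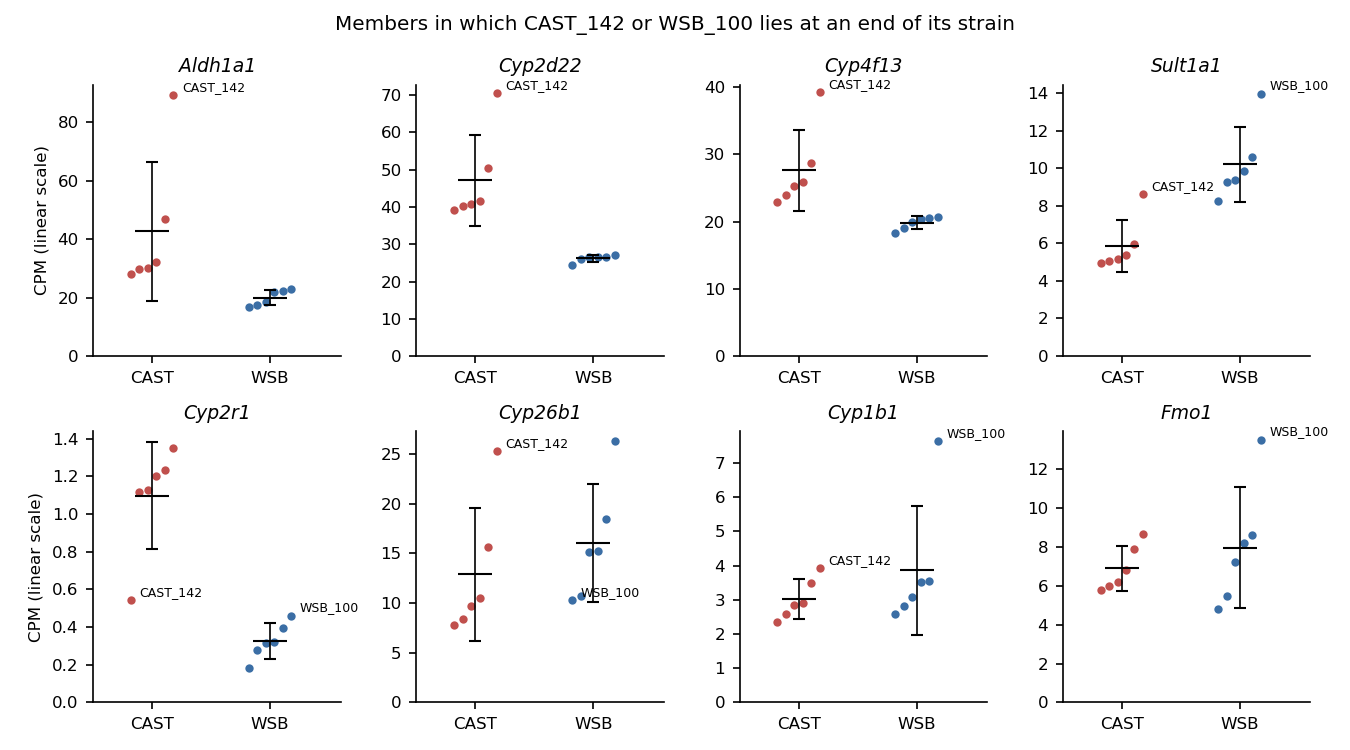
CPM in each animal (y axis, linear; 1 point per animal, line and bars are mean and SD, n = 6) for 8 genes, CAST left of WSB, with CAST_142 or WSB_100 named where it is the highest or lowest of its strain. CAST_142 is highest for Aldh1a1 at 89.1 and lowest for Cyp2r1 at 0.542, and WSB_100 is highest for Cyp1b1 at 7.65.

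Of 11 genes for electron transfer to P450 and for haem supply or breakdown, 3 were called higher in CAST and 1 lower (2 lower without CAST_142, CAST_170, WSB_138 or WSB_147). Over all tested genes 21.5% were called higher and 21.2% lower. Hmox2, a gene of haem breakdown, was among those called higher, but 45.8% of its 32-mers are shared with other genes and 57.1% of its body lies outside them. Por, the P450 reductase and chosen after its values were seen, was at 84.2 ± 7.78 CPM in CAST animals, against 85.0 ± 2.09 CPM in WSB animals (mean ± SD of 6 animals each) and was not called. Cyb5r3, the cytochrome b reductase, was at 53.8 ± 3.65 and 40.7 ± 3.03 CPM (log2 fold change 0.40; adjusted p = 7.82e-05 by edgeR), and Fdx1, the mitochondrial ferredoxin, at 11.7 ± 0.885 and 9.72 ± 0.550 CPM. Of 13 tested sensors and regulators 1 was called higher and 2 lower, where 42.7% of all tested genes were called. Arnt, the partner of the aryl hydrocarbon receptor, was at 80.4 ± 8.25 CPM in CAST animals, against 108 ± 9.76 CPM in WSB animals (log2 fold change -0.43), and Nr1h3, an oxysterol receptor, was lower by -0.71. Nr1i2, Nr1i3 and Hnf4a, the main regulators of these genes in liver, fell below the filter. Only 30.3% of the body of Nr1i3 and 47.2% of that of Hnf4a lie outside other genes, so low counts there are a limited measure of expression.

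Of 10 tested genes that supply or remove conjugation cosubstrates, 1 was called higher and 5 lower, and for this list and the next ones the shares over all tested genes were 21.5% higher and 21.2% lower. Papss1 and Papss2, which make the sulfate donor, were at 64.3 ± 1.32 and 9.61 ± 1.30 CPM in CAST, against 77.8 ± 3.44 and 16.2 ± 1.79 CPM in WSB (mean ± SD of 6 animals each), with log2 fold changes of -0.27 and -0.75. Of 10 epoxide hydrolases and methyl and acetyl transferases 5 were called higher and 1 lower. As3mt, the arsenic methyltransferase, was at 43.5 ± 5.15 CPM in CAST animals, against 14.3 ± 1.02 CPM in WSB animals (log2 fold change 1.61), and Ephx1, the microsomal epoxide hydrolase, at 29.5 ± 2.0 and 21.2 ± 1.73 CPM (log2 fold change 0.47). Of 10 drug and anion transporters 1 was called higher (2 without CAST_142) and 5 lower. Abcb1b and Abcb1a, the paired P-glycoprotein genes of the mouse, were lower by -2.35 and -0.24. Of the 4 genes left out of the group by its rule, Aldh1l1, an astrocyte marker, was lower at 37.0 ± 1.62 CPM in CAST animals, against 44.9 ± 3.15 CPM in WSB animals, and Cyp46a1, Cyp51 and Cyp27a1 were not called.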

How the data were processed

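RNA-seq libraries of 12 brains were each sequenced on lanes 5 and 6. The deposited files hold raw read counts per gene from HTSeq, and the authors' other tools were cutadapt, TopHat2 2.1.1 and DESeq2, per the submitters' processing notes. Which genome build, annotation and strand option they used is not given in the sources used here. Both lanes of an animal were summed. The 5 HTSeq counters were left out of library sizes: reads with no feature were 4.04% to 4.95% of the total, ambiguous ones 11.1% to 16.5% and alignments that were not unique 15.6% to 17.5%. Symbols, positions and transcripts came from GENCODE M21 (GRCm38), which matched 53360 of 53465 IDs.

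Strains were compared with edgeR 4.0.16 (R 4.3.3), with TMM scaling, filterByExpr and robust quasi-likelihood fits on 18425 genes, and CPM values are TMM-scaled. SE is the log2 fold change over the root of F. Alternatives used DESeq2 1.42.0, limma 3.58.1, other scalings and filters, single lanes, and fits without each animal. On simulated counts for 18248 genes the main fit recovered 58.2% of 1.5-fold, 87.9% of 2-fold and 98.5% of 4-fold changes. Tables were made with Python 3.11.15, pandas 2.3.3 and scipy 1.17.1. Nothing in the labels says more of the animals than their strain and number, so p-values measure the spread between these animals. Counting intervals cover counting error only.

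The genes and lists were chosen with earlier results of these data known. Genes were named by level per length and by fold change within each enzyme group, and the called partner genes of smallest p in each list. Others are said to be chosen after their values were seen.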

Additional observations from a re-analysis of the deposited data

Results flagged for a closer look

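The values of the 68 tested genes were searched in the 6 animals of each strain, 136 groups in all, for an animal far from the other 5. In 9 groups 1 animal stood apart by Dixon's criterion, where chance sets an animal apart in about 1 of 20 groups. Of these, 6 were CAST_142. It was highest of the CAST animals for Aldh1a1 at 89.1 CPM (next 46.8), for Cyp2d22 at 70.5 CPM (next 50.5), for Cyp4f13 at 39.3 CPM (next 28.7), for Sult1a1 at 8.61 CPM (next 5.97) and for Cyp4f17 at 7.75 CPM (next 5.67). It was lowest for Cyp2r1, at 0.542 CPM (next 1.12). The same animal held the highest levels of the cerebellar granule cell markers Cbln3 and Gabra6 among CAST animals, and the part of this in the enzyme values was not tested. WSB_100 was highest of the WSB animals for Cyp1b1 at 7.65 CPM (next 3.55) and for Sult3a1 at 0.333 CPM (next 0.0932). CAST_202 was highest of the CAST animals for Aox2 at 1.45 CPM (next 1.04).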

How the results depend on the processing

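Over 22 alternatives, genes of the group called higher numbered 27 to 44 (30 to 36 without 1 animal), called lower 11 to 18 (14 to 17), and called with at least 2-fold 22 to 41 (26 to 29), while 6421 to 9066 of all genes were called (7313 to 8726). Of 1469 refitted fold changes of single genes 1429 stayed called or not called as before, 23 lost the call and 17 gained it. No called gene changed sign. Cyp2s1 and Fmo1, which were not called, did so, with log2 fold changes of -0.160 to 0.00467 and -0.321 to 0.0421. Of the 48 called genes 41 kept the call wherever tested. Aldh1a2, Aldh1a3, Aldh3b1, Ces5a, Cyp2j6, Cyp3a13 and Sult6b1 did not. Some small counts moved by over 1.5 times, and the cause was not tested. P450 genes of families 1 to 3 called lower numbered 0 with a filter of 1 CPM, 1 on lane 5 alone and 0 on lane 6 alone. P450 genes of families 7 to 39 called higher numbered 1 to 3 without 1 animal and 3 without CAST_142 and WSB_100. Carboxylesterases called higher numbered 0 with the 1 CPM filter, 0 on lane 6 alone, 0 to 1 without 1 animal and 4 with no low-count filter, which also called 2 lower and 1 glucuronosyltransferase higher. Sulfotransferases called lower numbered 1 with the 1 CPM filter and on either lane alone. Genes of the electron transfer and haem list called lower numbered 2 by DESeq2 and on lane 6 alone, and 1 to 2 without 1 animal. Regulators called higher numbered 0 on lane 5 alone. Transporters called higher numbered 1 to 2 without 1 animal and 2 without CAST_142 and WSB_100. No paired analysis was possible because the strains share no animal number. Genes with few reads in 1 strain have fold changes that depth limits.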

Other observations

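Markers of other cell types were summed per animal. Beside the counts of calls given here, 21.5% of all tested genes were called higher in CAST and 21.2% lower. Endothelial markers, of which 2 were called higher and 1 lower of 7 tested, lay at 199.6 to 224 CPM in CAST and 199 to 225 CPM in WSB animals. Of 6 tested fibroblast markers 1 was called higher and 1 lower, with sums of 37.3 to 79.6 CPM in CAST and 53.3 to 78.9 CPM in WSB animals. Of 7 tested choroid plexus markers 1 was called lower, with sums of 141 to 542 CPM in CAST and 57.0 to 734 CPM in WSB animals. Of 4 tested erythroid markers 2 were called higher, with sums of 44.1 to 179 CPM in CAST and 32.7 to 87.5 CPM in WSB animals. Their part in the enzyme differences was not tested.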
